A study of Mus musculus with 8 samples.

Results

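The HoxA cluster is a run of homeobox genes on mouse chromosome 6, and 9 of its genes, Hoxa2, Hoxa3, Hoxa4, Hoxa5, Hoxa6, Hoxa7, Hoxa9, Hoxa10 and Hoxa11, are described here out of the 27179 genes of the count table. They were chosen by symbol, through the gene identifiers of the table, because the cluster is the main locus that MLL fusion proteins act on. Their level in each library and their difference between diets are given. All 9 had a row and all 9 passed the filter on low counts, with which 13364 genes were tested.

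The libraries came from acute myeloid leukaemia (AML) cells that carry MLL-AF9, an oncoprotein that joins MLL, the methyltransferase encoded by Kmt2a, to AF9, encoded by Mllt3, and that the labels give the genotype WT. Male mice aged 8 to 10 weeks received the same number of these cells by vein, with no preconditioning, on a host strain that the labels do not name. Every mouse of both groups was then given the chemotherapy called 5+3, in which cytarabine (100 mg/kg) is given each day over 5 days and doxorubicin (3 mg/kg) on days 1 to 3. The groups differed in food. In 5 mice it was a standard amino acid diet (labelled AA), and in 3 mice a diet free of the branched-chain amino acids leucine, isoleucine and valine (titled BCAA, read as BCAA-free from the series' design text). Living GFP-positive cells were sorted from the marrow of crushed bones when the response to chemotherapy was greatest, and their polyadenylated RNA was read as pairs of 38 bp. GFP was placed under the control of ubiquitin and luciferase under the β-actin promoter. All 8 libraries go back to the leukaemia of a single ill mouse that was expanded in culture with SCF, IL-3 and IL-6, so they model 1 leukaemia in several hosts. The labels call the libraries biological replicates.

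Hox genes encode transcription factors that hold a DNA-binding homeodomain, and their order along a cluster follows the order in which they are switched on along the body axis. In blood, the HoxA genes are active in stem and early progenitor cells and are silenced as myeloid cells mature. MLL fusions keep them on, and HOXA9 together with its partners MEIS1 and PBX3 maintains the self-renewal of such leukaemias.

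All 9 genes lie on the minus strand of chromosome 6 in GRCm38.p6 (the assembly that mm10 names), from Hoxa2 at chr6:52162417-52164831 to Hoxa11 at chr6:52242105-52245810. RefSeq promoter windows, each of 250 bases before and 50 after a transcription start, were found for 8 of the 9 genes (9 windows, since Hoxa10 has a pair). CpG dinucleotides, the sites of DNA methylation, numbered 29 in the window of Hoxa5, 26 in Hoxa6, 20 in Hoxa3, 15 in Hoxa11, 12 and 21 in Hoxa10, 9 in Hoxa2 and in Hoxa7, and 4 in Hoxa9. The median over 32851 windows of the same length was 7, so 8 of the 9 windows lay above it and that of Hoxa9 below. The windows of Hoxa6 and Hoxa9 are printed because they are at opposite sides of that median and because the results below turn on these genes. Both are from RefSeq on GRCm38.p6, 5′ to 3′ on the minus strand, at chr6:52208623-52208922 (Hoxa6) and chr6:52227321-52227620 (Hoxa9), and the capitals mark each CpG.
Hoxa6: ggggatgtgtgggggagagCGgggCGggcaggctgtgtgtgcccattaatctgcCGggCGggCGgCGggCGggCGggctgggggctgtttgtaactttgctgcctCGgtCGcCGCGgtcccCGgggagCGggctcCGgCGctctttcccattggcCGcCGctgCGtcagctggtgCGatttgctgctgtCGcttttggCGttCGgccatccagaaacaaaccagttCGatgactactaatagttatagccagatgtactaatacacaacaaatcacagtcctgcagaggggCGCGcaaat
Hoxa9: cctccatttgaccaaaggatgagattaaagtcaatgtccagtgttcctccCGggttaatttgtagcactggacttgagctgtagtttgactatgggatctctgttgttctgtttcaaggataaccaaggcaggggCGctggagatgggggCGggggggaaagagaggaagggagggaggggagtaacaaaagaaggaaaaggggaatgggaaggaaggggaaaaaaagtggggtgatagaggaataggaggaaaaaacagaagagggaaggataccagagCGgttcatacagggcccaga

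Both strands of the windows were searched for TGATTNAT, the composite motif of a HOX protein with a PBX partner, and for TGACAG, the motif of MEIS proteins. The matches did not overlap each other. TGATTNAT was found in 1 of the 9 windows, that of Hoxa2, and in 3.22% of all 32851 windows. TGACAG was found in 2 of the 9, those of Hoxa2 and Hoxa3, and in 19.2% of all windows. The window of Hoxa2, at chr6:52164782-52165081 on the minus strand of GRCm38.p6, is printed as the one that holds both, with the matches in capitals, the first of them on the opposite strand.
Hoxa2: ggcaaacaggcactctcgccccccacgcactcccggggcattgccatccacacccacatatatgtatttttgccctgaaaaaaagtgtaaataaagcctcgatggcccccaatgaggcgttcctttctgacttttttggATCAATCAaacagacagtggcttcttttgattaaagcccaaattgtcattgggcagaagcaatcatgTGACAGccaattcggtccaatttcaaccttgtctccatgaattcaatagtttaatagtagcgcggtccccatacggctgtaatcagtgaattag

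The cluster also holds a microRNA gene, Mir196b, between Hoxa9 and Hoxa10. Its mature form miR-196b-5p lies at chr6:52230129-52230150 on the minus strand. The mature form miR-196a-5p, read here from the gene Mir196a-1 in the HoxB cluster on chromosome 11, has the same seed. Both are printed from RefSeq with the seed, bases 2 to 8, in capitals.
miR-196b-5p: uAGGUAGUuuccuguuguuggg
miR-196a-5p: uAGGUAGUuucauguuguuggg
The count table did not measure mature microRNAs, because the libraries were made from polyadenylated RNA. The Mir196b row held 33, 3, 7, 8 and 1 counts on the standard diet and 4, 12 and 21 on the BCAA-free diet, so the groups overlapped.

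Library totals lay between 16588662 and 38966911 counts on the standard diet and between 14851240 and 30306697 on the BCAA-free diet. Myeloid leukaemia markers were abundant in every library: the sum over 12 such genes was 14351 to 17634 CPM (counts scaled to the size of the library) on the standard diet and 11296 to 13715 CPM on the BCAA-free diet. Markers of other marrow cells were present at lower and uneven levels. The sums over 8 B and plasma cell genes were 14.7 to 54.1 CPM and 28.7 to 112 CPM, over 10 T and NK cell genes 6.48 to 17.5 CPM and 9.51 to 57.7 CPM, and over 9 mature neutrophil genes 736 to 6053 CPM and 1448 to 5930 CPM, standard diet first. No gene of these 3 lists was at 0 in all libraries. Of 18 stromal and bone-lineage genes, whose cells also use Hox genes, the sums were 81.2 to 104 CPM and 65.4 to 117 CPM, mostly from Runx2 (78.7 and 58.3 CPM on average), which myeloid cells express too. The called gene Cxcl12 had 5.21 and 23.8 CPM on average, Pdgfrb 4.51 and 4.33 CPM, Col1a2 0.858 and 1.12 CPM and Sparc 0.602 and 1.04 CPM. Acan and Sox9 were at 0 in every library and Col3a1, Lum, Prrx1 and Sp7 had a mean of at most 0.0635 CPM in either group.

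Among the 4 Hox clusters, nearly all Hox counts of these leukaemia cells came from HoxA (as shares of counts, not per length). The 9 genes described here and Hoxa13 held 97.5% to 98.3% of the counts of the Hox genes analysed in a library. HoxB held 1.63% to 2.38%, HoxC at most 0.0897% and HoxD at most 0.0211%. None of the 9 HoxC and 9 HoxD genes reached 10 counts in any library. In HoxB, Hoxb4, which expands haematopoietic stem cells when overexpressed, had 7.12 ± 1.18 CPM (SD, n = 5) on the standard diet and 7.69 ± 1.01 CPM (SD, n = 3) on the BCAA-free diet. The other HoxB genes tested were Hoxb13, at 1.74 ± 0.307 and 1.24 ± 0.202 CPM, and Hoxb3, at 0.961 ± 0.307 and 0.649 ± 0.409 CPM. None of these 3 passed the diet test (edgeR adjusted p = 0.877, 0.715 and 0.783).

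**Figure D1:**
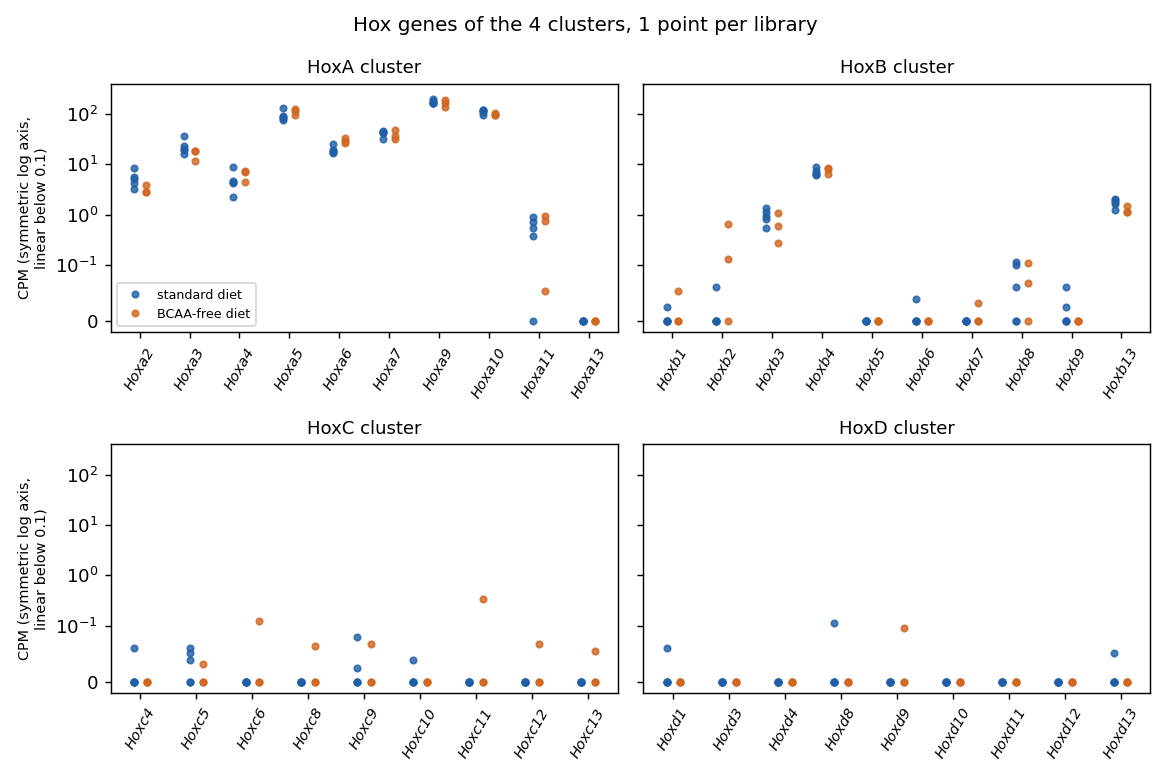
CPM (y axis, log scale, linear below 0.1) of Hox genes of the 4 clusters, with 1 panel per cluster and genes in cluster order along the x axis; each point is 1 library, coloured by diet. The highest values belong to HoxA genes, with Hoxa9 between 140 and 200 CPM, but Hoxa11 reaches at most 0.939 CPM and Hoxa13 is at 0. No HoxC or HoxD gene reached 10 counts.

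Levels of different genes were compared per kilobase of exon (CPM per kb), over all 8 libraries. Hoxa5 and Hoxa9 led, at 53.4 ± 11.3 CPM per kb (SD, n = 8, range 40.0 to 70.9) and 53.0 ± 5.64 CPM per kb (range 43.4 to 61.9), and their ranges overlapped. Hoxa10, at 34.0 ± 3.65 CPM per kb, lay below Hoxa9 with no overlap. Hoxa6 followed at 26.4 ± 6.87 CPM per kb and Hoxa7 at 20.0 ± 3.15 CPM per kb. The ranges of Hoxa10 and Hoxa6 overlapped, as did those of Hoxa6 and Hoxa7.

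The anterior genes and the posterior end of the cluster were low. Hoxa3 had 7.84 ± 2.79 CPM per kb, apart from Hoxa7 above it, and its range overlapped that of Hoxa4 at 3.41 ± 1.39 CPM per kb. Hoxa4 in turn overlapped Hoxa2 at 2.55 ± 1.06 CPM per kb. Hoxa11 had 0.236 ± 0.159 CPM per kb, clear of Hoxa2. Hoxa13, the most posterior gene, had 0 counts in all 8 libraries, where 0 allows up to 3 counts per library. Along the cluster, the mean level per kb over the 8 libraries was high at Hoxa5, lower at Hoxa6 and Hoxa7, and high again at Hoxa9. It was lower at Hoxa10 and near 0 at Hoxa11. The order of Hoxa6 and Hoxa10 was not the same in all 8 libraries. Per kb, Hoxa10 lay above Hoxa6 in every standard diet library, and their ranges on that diet did not overlap. On the BCAA-free diet their order varied between libraries. The means of Hoxa6 and Hoxa10 were 22.2 and 35.7 CPM per kb on the standard diet, but 33.5 and 31.0 CPM per kb on the BCAA-free diet. The lengths of Hoxa4 and Hoxa6 came from a transcript version that differs from the one RefSeq links, so their place in this order is less sure.

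The exons of some of these genes overlap other genes annotated in GENCODE M21, and the strand setting of the counting is not given in the sources used here. Overlapped were 35.0% of the exonic bases of Hoxa11 (by Hoxa11os), 29.5% of Hoxa3, 28.8% of Hoxa7 (by Hoxaas3), 16.0% of Hoxa4 and 15.04% of Hoxa2, so counts of these 5 genes may be shared with or lost to their neighbours. The exons of Hoxa5, Hoxa6, Hoxa9 and Hoxa10 overlapped no other gene. Stretches of 38 bases, the read length, that also occur in a gene elsewhere made up 1.79% of the Hoxa6 transcript and 0.507% of the Hoxa7 transcript, in both cases in Hoxb4, and 0% of the other 7.

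The design asked whether food without branched-chain amino acids alters gene expression in leukaemia cells after chemotherapy. For the HoxA genes no difference passed the test: 0 of 9 were called at the adjusted threshold of 0.05 (edgeR, quasi-likelihood), where 0.756% of all tested genes were. DESeq2 called 1 of the 9, Hoxa6, and 2.71% of the 13970 genes to which it gave an adjusted p. With no filter on low counts edgeR called 0 of the 9 and 1.21% of all genes. In edgeR 3 of the 9 (Hoxa2, Hoxa3 and Hoxa6) had an unadjusted p under 0.05, beside 13.5% of all tested genes. Fold changes of the 9 were split, with 4 higher and 5 lower on the BCAA-free diet, and their median log2 fold change was -0.08, beside 0.02 over all tested genes. Groups of libraries did not overlap for 1 of the 9, Hoxa6, beside 8.84% of all tested genes. In bulk RNA of sorted cells, fewer cells that express a gene and less RNA per cell cannot be told apart.

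Summed over the 9 genes, the level differed between diets by less than the spread of the replicates. The sum was 428, 573, 458, 451 and 463 CPM on the standard diet and 514, 449 and 440 CPM on the BCAA-free diet. These are means of 475 ± 56.8 (SD, n = 5) and 468 ± 40.5 CPM (SD, n = 3). Standard diet library 2 was the highest and the groups overlapped.

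**Figure D2:**
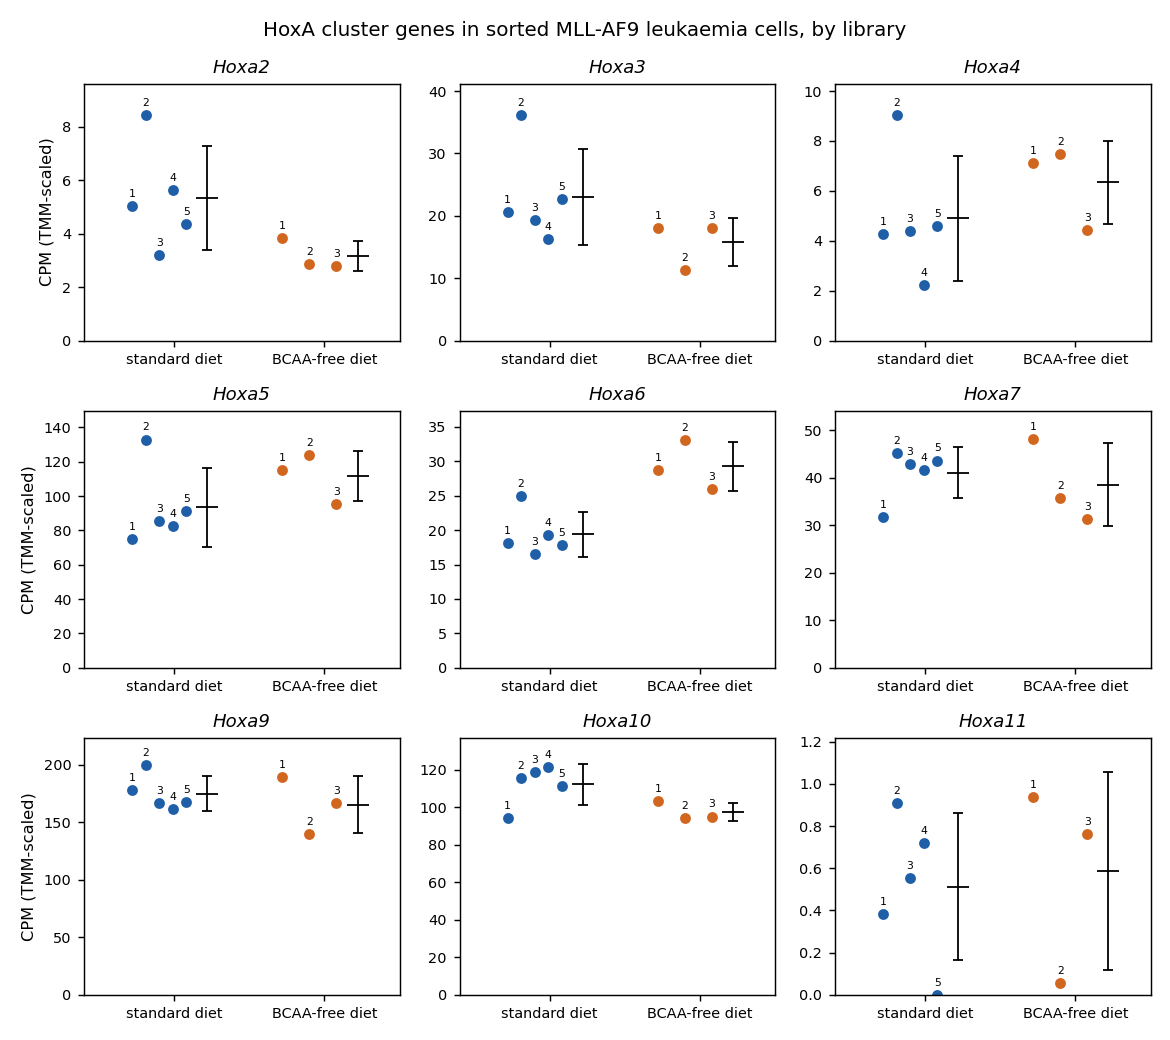
CPM of each HoxA gene in every library; points are libraries coloured by diet, and the bar and whiskers are the group mean and SD (n = 5 standard, n = 3 BCAA-free). Only for Hoxa6 do all 3 BCAA-free libraries (26.0 to 33.1 CPM) lie above all 5 standard diet libraries (16.6 to 24.9 CPM).

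The middle genes, Hoxa5, Hoxa6 and Hoxa7, lie next to each other in the cluster. The estimates of Hoxa5 and Hoxa6 were above 0 and that of Hoxa7 was slightly below 0. Of these genes only Hoxa6 had a 95% interval that excluded 0. Hoxa6 (chr6:52204858-52208672), a middle gene known mainly from the patterning of the axial skeleton, had 18.2, 24.9, 16.6, 19.3 and 17.9 CPM on the standard diet. On the BCAA-free diet it had 28.8, 33.1 and 26.0 CPM. All 3 BCAA-free libraries were above the highest standard diet library. The means were 19.4 ± 3.25 CPM (SD, n = 5) and 29.3 ± 3.60 CPM (SD, n = 3), a 1.51-fold difference and a log2 fold change of 0.60 (SE 0.16, 95% interval 0.25 to 0.94). The adjusted p was 0.104 in edgeR and 0.0342 in DESeq2, and over all alternatives it ranged from 0.0342 to 0.560. Without the libraries highest in mature neutrophil genes, standard diet 3 and BCAA-free 2, the log2 fold change of Hoxa6 was 0.44 (adjusted p = 0.5197 in edgeR). The sums of mature neutrophil genes were 6053 and 5930 CPM in those libraries, and their part in the difference was not tested.

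Hoxa5 (chr6:52201754-52204587), which influences the choice between myeloid and erythroid fate in progenitors, had 75.1, 133, 85.5, 82.6 and 91.1 CPM on the standard diet. The BCAA-free libraries had 115, 124 and 95.6 CPM. These lay above 4 of the 5 standard diet libraries but under standard diet library 2. With means of 93.5 ± 22.8 CPM (SD, n = 5) and 112 ± 14.6 CPM (SD, n = 3), the log2 fold change was 0.26 (SE 0.16, 95% interval -0.08 to 0.59, adjusted p = 0.513 in edgeR). It was 0.42 without standard diet library 2, 0.16 without BCAA-free library 2, and 0.13 without both libraries highest in mature neutrophil genes.

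Hoxa7 (chr6:52215623-52218573), a recurrent member of the MLL fusion target set, had 31.8, 45.3, 43.0, 41.7 and 43.7 CPM on the standard diet and 48.3, 35.8 and 31.4 CPM on the BCAA-free diet. The BCAA-free libraries spanned the whole range of the standard diet. The log2 fold change was -0.10 (SE 0.16, 95% interval -0.43 to 0.24, adjusted p = 0.844 in edgeR).

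The posterior genes Hoxa9 and Hoxa10 are those most closely tied to leukaemia. Hoxa9 (chr6:52223097-52227370), needed by many MLL-rearranged leukaemias for growth, had 178, 199.8, 167, 161 and 167 CPM on the standard diet. On the BCAA-free diet it had 189, 140.0 and 166 CPM. The highest library was standard diet 2 and the lowest BCAA-free 2, with the others between 161 and 189 CPM. Group means were 175 ± 15.3 CPM (SD, n = 5) and 165 ± 24.6 CPM (SD, n = 3). The log2 fold change was -0.08 (SE 0.11, 95% interval -0.32 to 0.16, adjusted p = 0.806 in edgeR).

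Hoxa10 (chr6:52231197-52240854), which like Hoxa9 blocks myeloid differentiation when overexpressed, had 94.0, 116, 119, 121 and 112 CPM on the standard diet. The BCAA-free libraries had 103, 94.2 and 95.1 CPM. These 3 lay below 4 of the 5 standard diet libraries, while standard diet 1 was the lowest of all 8. Means were 112 ± 10.8 CPM (SD, n = 5) and 97.5 ± 5.00 CPM (SD, n = 3), for a log2 fold change of -0.20 (SE 0.11, 95% interval -0.43 to 0.03, adjusted p = 0.435 in edgeR). Hoxa11 (chr6:52242105-52245810), a gene of limb and uterine development, was barely detected. It had 15, 16, 14, 12 and 0 counts on the standard diet and 14, 1 and 24 on the BCAA-free diet. Its log2 fold change of 0.19 had a 95% interval from -1.84 to 2.23 (edgeR), so no direction could be read at this depth.

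**Figure D3:**
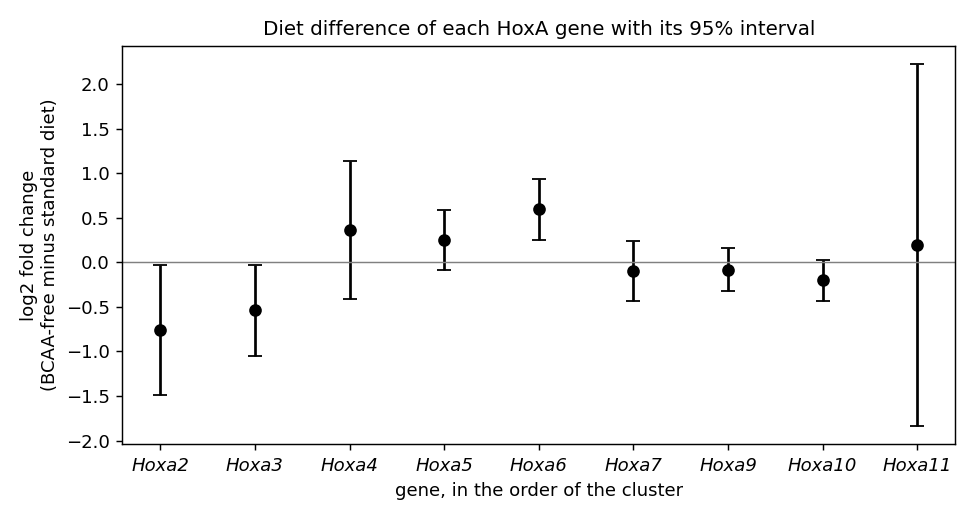
Log2 fold change of each HoxA gene, BCAA-free minus standard diet (y axis), in cluster order along the x axis; points are edgeR estimates and whiskers their 95% intervals, not adjusted for multiple tests. The intervals of Hoxa2 and Hoxa3 lie below 0 and that of Hoxa6 (0.25 to 0.94) above 0, while the other 6 include 0.

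The anterior genes Hoxa2 and Hoxa3 had lower means on the BCAA-free diet. Hoxa2, which sets the identity of the hindbrain and the pharyngeal arches, had 5.04, 8.45, 3.21, 5.64 and 4.35 CPM on the standard diet. The BCAA-free libraries had 3.82, 2.87 and 2.80 CPM. They were all under 4 of the 5 standard diet libraries, and standard diet 3 lay among them. The means were 5.34 ± 1.96 CPM (SD, n = 5) and 3.16 ± 0.571 CPM (SD, n = 3), with a log2 fold change of -0.76 (SE 0.34, 95% interval -1.49 to -0.03, adjusted p = 0.349 in edgeR).

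Hoxa3 (chr6:52169059-52213067), a gene of thymus and parathyroid formation, had 20.5, 36.2, 19.4, 16.2 and 22.7 CPM on the standard diet. The BCAA-free libraries had 18.0, 11.4 and 18.1 CPM. BCAA-free 2 was the lowest of all 8 libraries, and standard diet 4 lay below the other two BCAA-free libraries. The means were 23.0 ± 7.74 CPM (SD, n = 5) and 15.8 ± 3.84 CPM (SD, n = 3). The log2 fold change was -0.54 (SE 0.24, 95% interval -1.05 to -0.03, adjusted p = 0.344 in edgeR). It was -0.32 without standard diet 2 and -0.36 without BCAA-free 2. Hoxa4 (chr6:52189682-52191703), the next gene along the cluster, had 4.25, 9.02, 4.41, 2.22 and 4.596 CPM on the standard diet and 7.11, 7.48 and 4.42 CPM on the BCAA-free diet. Its groups overlapped, with the lowest and the highest library both on the standard diet. The log2 fold change of Hoxa4 was 0.37 (SE 0.37, 95% interval -0.41 to 1.14, adjusted p = 0.7103 in edgeR). It moved with single libraries, to 0.70 without standard diet 2, 0.57 without BCAA-free 3, 0.22 without BCAA-free 2 and 0.19 without standard diet 4.

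The heat map of centred values shows how the genes varied by library. Standard diet library 2 was the highest of all 8 for Hoxa2, Hoxa3, Hoxa4, Hoxa5 and Hoxa9. BCAA-free library 2 was the lowest for Hoxa3 and Hoxa9 and at the same time the highest for Hoxa6. Across the 8 libraries the Pearson correlation with Hoxa9, on log2 CPM, was 0.84 for Hoxa3, 0.65 for Hoxa2, 0.42 for Hoxa7, 0.29 for Hoxa4, 0.26 for Hoxa10, 0.14 for Hoxa5 and -0.14 for Hoxa6, and 0.59 for Hoxa11 at its low counts. These are descriptions over the same 8 libraries, which share depth and scaling.

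**Figure D4:**
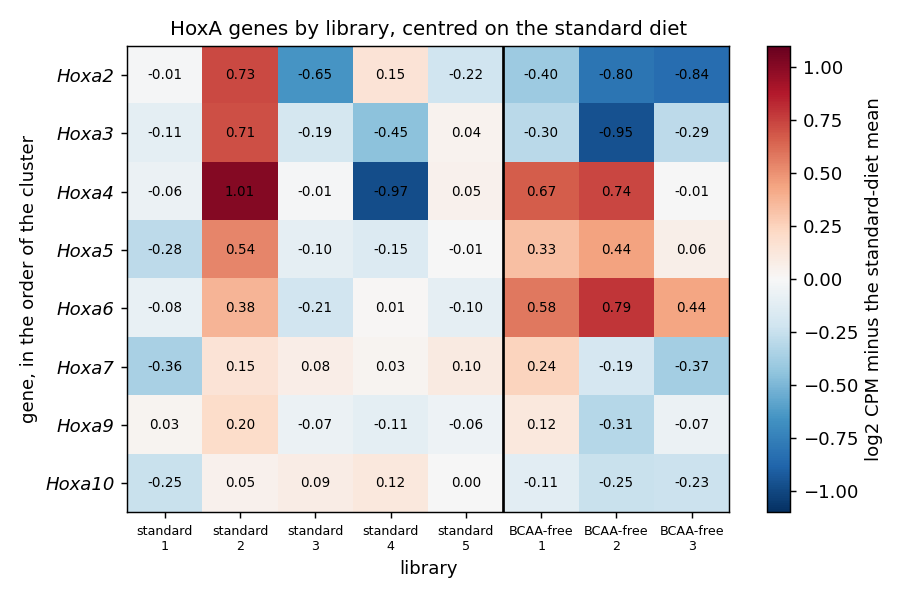
Log2 CPM of 8 HoxA genes (rows, in cluster order) in each library (columns), minus the mean of the 5 standard diet libraries; red is higher, blue lower, and Hoxa11 is left out for its low counts. Hoxa6 is above 0 in all 3 BCAA-free libraries (0.44 to 0.79) and Hoxa2 and Hoxa3 are below 0 in all 3.

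None of the other transcripts of the locus described here passed the test. Mira, a noncoding RNA between Hoxa6 and Hoxa7, had 33.2 ± 3.93 CPM (SD, n = 5) and 32.9 ± 4.67 CPM (SD, n = 3). Hoxaas3, a noncoding RNA, had 13.4 ± 4.64 and 13.5 ± 4.43 CPM. Its RefSeq span holds Hoxa5 and Hoxa6 and ends before Hoxa7, whereas its GENCODE M21 exons overlap Hoxa7. The noncoding transcript 5730596B20Rik, within the span of Hoxa3, had 19.9 ± 6.16 and 14.6 ± 3.34 CPM, with a log2 fold change of -0.45 (SE 0.23, adjusted p = 0.415 in edgeR). Skap2, a gene outside the cluster, had 384 ± 19.6 and 349 ± 45.9 CPM (adjusted p = 0.596 in edgeR).

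The 5 genes most like Hoxa9 were named by the highest Pearson correlation of log2 CPM over the 8 libraries among 9018 tested genes that averaged 10 CPM or more, HoxA members aside. They were Celsr3 (r = 0.94), Tbxas1 (0.93), Tada2a (0.93), Fan1 (0.92) and 5730596B20Rik (0.91). The last is the HoxA transcript above. With so many candidates and 8 libraries, these values describe the libraries and no more.

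The partners of HOX proteins are TALE homeodomain proteins, which bind DNA beside them. Of 11 such genes 8 were tested and 0 passed, beside 0.756% of all tested genes. Of the 8, 4 were higher and 4 lower, with a median log2 fold change of 0.06. Meis1, the partner that makes HOXA9 fully leukaemogenic, had 122, 146, 133, 121 and 120.3 CPM on the standard diet and 128, 113 and 119 CPM on the BCAA-free diet. These overlapped (adjusted p = 0.735 in edgeR). Pbx3, which stabilises the HOXA9 complex, had 80.6, 93.8, 78.9, 71.2 and 85.2 CPM on the standard diet and 65.7, 65.8 and 67.9 CPM on the BCAA-free diet. All 3 BCAA-free libraries were below all 5 of the standard diet, with a log2 fold change of -0.30 (SE 0.11, adjusted p = 0.257 in edgeR). Of the 8 tested genes Pbx3 was the only 1 whose groups did not overlap, beside 8.84% of all tested genes.

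The MLL complex and the machinery of transcription elongation were described by 26 genes. All 26 were tested and 0 passed in edgeR, beside 0.756% of all tested genes. The median log2 fold change was -0.01. DESeq2 called 2 of them, Mllt3 and Mllt6, beside 2.71% of all genes. Mllt3, which encodes AF9, had 68.0, 73.6, 47.7, 54.6 and 55.5 CPM on the standard diet and 34.2, 47.0 and 41.0 CPM on the BCAA-free diet. The groups did not overlap, for Mllt3 alone of the 26, beside 8.84% of all tested genes. The log2 fold change was -0.56 (SE 0.16), with an adjusted p of 0.113 in edgeR and 0.0291 in DESeq2. Reads of the AF9 part of the fusion may fall in this row, and the labels do not say whether the fusion was made from mouse or human sequence. Mllt6 had 5.83, 5.79, 3.69, 5.46 and 5.08 CPM against 5.43, 24.2 and 8.08 CPM. The size of its difference thus rested mainly on BCAA-free library 2, while BCAA-free 3 was also above every standard diet library.

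Kmt2a, the MLL gene, whose row may also hold reads of the fusion, had 640.0 ± 114 CPM (SD, n = 5) and 576 ± 40.3 CPM (SD, n = 3) (adjusted p = 0.651 in edgeR). Men1, whose product menin tethers MLL to the HoxA locus, had 30.0 ± 3.13 and 39.5 ± 11.7 CPM (adjusted p = 0.331), and Dot1l, a histone methyltransferase recruited by AF9, had 122 ± 10.3 and 126 ± 13.7 CPM (adjusted p = 0.891). None of these 3 passed the test.

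Polycomb proteins silence HoxA genes as cells mature, and other chromatin regulators and CDX factors act on the cluster too, some of them against Polycomb. Of 19 genes in this mixed list 16 were tested and 0 passed, beside 0.756% of all tested genes. Of the 16, 6 were higher and 10 lower, with a median log2 fold change of -0.11. The groups did not overlap for 3 of the 16, beside 8.84% of all tested genes: Ezh2 and the insulator protein gene Ctcf had lower values on the BCAA-free diet and Cbx8, a Polycomb gene, higher ones. Ezh2, the Polycomb methyltransferase, was at 291 ± 19.4 and 258 ± 12.7 CPM (adjusted p = 0.463 in edgeR). Suz12 had 540 ± 61.2 and 440 ± 72.0 CPM (adjusted p = 0.318) and Cbx7 had 4.12 ± 1.62 and 8.47 ± 4.54 CPM (adjusted p = 0.251).

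A list of genes known as targets of HOXA9 or HOXA10 in myeloid cells held 26, of which 23 were tested. In edgeR 0 passed, beside 0.756% of all tested genes, with 12 higher, 11 lower and a median log2 fold change of 0.11. DESeq2 called 3 of the 23 to which it gave an adjusted p, beside 2.71% of all genes. Flt3, a receptor kinase of progenitors, had 6.90, 4.77, 3.97, 7.74 and 11.5 CPM on the standard diet and 10.6, 19.7 and 14.7 CPM on the BCAA-free diet. It had a log2 fold change of 1.11 (SE 0.30), with an adjusted p of 0.103 in edgeR and 0.0217 in DESeq2. Its groups overlapped in 1 library of each. Lmo2, a transcription cofactor of blood stem cells, had 628 ± 18.6 and 504 ± 6.14 CPM with no overlap, and an adjusted p of 0.128 in edgeR and 0.0122 in DESeq2. It was the only 1 of the 23 tested genes whose groups did not overlap, beside 8.84% of all tested genes.

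Cdk6, a cell cycle kinase, had 365 ± 54.9 and 254 ± 72.8 CPM, with an adjusted p of 0.179 in edgeR and 0.0478 in DESeq2. Myb, a regulator of progenitor growth, had 1206 ± 170 and 1068 ± 28.6 CPM (adjusted p = 0.538 in edgeR).

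**Figure D5:**
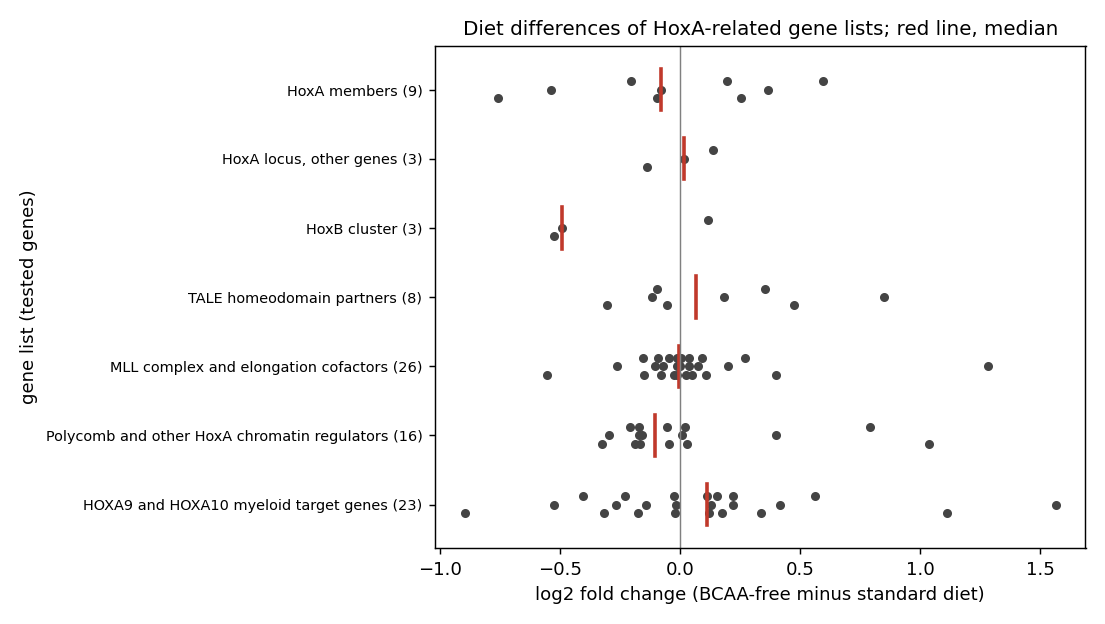
Log2 fold changes, BCAA-free minus standard diet, of the tested genes of each list (1 point per gene) with the list's median as a red bar and the number of tested genes in brackets; the grey line is 0. The HoxA genes lie on both sides of 0, from -0.76 to 0.60, with a median of -0.08.

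Some markers of other cells differed with diet in the same libraries. Cd79b and Cd79a, which mark B cells, passed the test and were higher on the BCAA-free diet, as was Cxcl12, a chemokine of marrow stroma. Their log2 fold changes were 1.34, 3.12 and 2.18 (adjusted p = 0.00852, 0.0305 and 0.0374 in edgeR), and BCAA-free library 2 held the highest B cell sum, 112 CPM. That library was also the highest for Hoxa6 and the lowest for Hoxa9. Without it Hoxa6 had a log2 fold change of 0.49 (adjusted p = 0.355 in edgeR) and Hoxa9 of 0.02, and 0 B cell genes passed. The call of Cd79b was lost, among single omissions, without that library only. The calls of the other 2 were lost without it or without several single libraries: Cd79a without standard diet 2, 4 or 5 or BCAA-free 1, and Cxcl12 without standard diet 1, 3 or 4 or BCAA-free 1. Mpo, the most abundant myeloid marker, had 8798 ± 1044 CPM (SD, n = 5) and 6236 ± 635 CPM (SD, n = 3) with no overlap (adjusted p = 0.0605 in edgeR). Of 6 B and plasma cell genes tested 3 passed, with 5 higher, 1 lower (Jchain, -0.51) and a median log2 fold change of 3.03. Of 7 stromal and bone-lineage genes tested only Cxcl12 passed, with 5 higher, 2 lower (Runx2, -0.44, and Pdgfrb, -0.06) and a median of 0.32. Over all tested genes 0.756% passed. Of the other marker lists, 0 of 12 myeloid leukaemia genes, 0 of 10 T and NK cell, 0 of 9 mature neutrophil, 0 of 9 macrophage and dendritic, 0 of 6 erythroid and megakaryocyte and 0 of 2 endothelial genes tested passed. Their median log2 fold changes were -0.20, 1.54, 0.41, 0.91, 1.20 and 0.02. The summed levels of the last 3 lists were 293 to 398, 6.23 to 13.3 and 22.0 to 42.8 CPM on the standard diet and 224 to 293, 10.4 to 38.3 and 24.8 to 31.4 CPM on the BCAA-free diet. Of the macrophage and dendritic genes, 6 were higher and 3 lower. The lower ones included Vcam1 (221 and 158 CPM on average) and Adgre1 (115 and 74.0 CPM), which held most of that list's sum. The part of these markers in the HoxA values was not tested.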

How the data were processed

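The authors deposited raw counts per gene, without normalization, for 8 libraries of polyadenylated RNA (Kapa mRNA HyperPrep, pairs of 38 bp, per the labels' protocols). Build mm10, featureCounts and Cell Ranger are named in the submitters' processing notes, without their versions or what each did. Not given in the sources used here are the aligner, whether counting used strand, and how multiply mapped reads were handled. Gene identifiers were matched to the RefSeq table of GRCm38.p6 (25275 of 27179), and exon lengths came from GENCODE M21.

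The fit covered all genes and all 8 libraries: edgeR 4.0.16 in R 4.3.3, quasi-likelihood F test with robust dispersion, TMM factors, edgeR's filter on low counts, and a model of diet alone. The filter's settings were a minimum count of 10 and a minimum total of 15. It applies the first as a CPM cut-off in part of the libraries, so a tested gene can have fewer counts in others. P-values were adjusted over 13364 genes by Benjamini-Hochberg, with a threshold of 0.05. CPM used TMM-scaled library sizes. Standard errors were derived from the F statistic, as |log2 fold change| over its square root. Promoters and microRNAs were read from RefSeq tables. The scripts were tested on simulated data.

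The members and the 17 gene lists were chosen with earlier results of these data known. The text names the HoxA genes, 8 fixed cofactors and targets, up to 3 called genes per other list or else the 2 with the smallest p, and the 5 genes most like Hoxa9. Some genes that this rule admits are not reported here. Alternatives were RLE and upper quartile factors, no filter, a non-robust fit, a replicate block, DESeq2 1.42.0 and leaving out each library. Omitting the 2 libraries highest in neutrophil genes was chosen after seeing the data. Within each group, every pair of libraries differed by more than sampling noise. The p-values measure the spread between hosts of 1 leukaemia.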

Additional observations from a re-analysis of the deposited data

Results flagged for a closer look

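In the standard diet group, 3 of 44 sets of values checked held a library that stood apart from the other 4, by the gap to its nearest neighbour over the range of the group. Chance alone sets a library apart in about 1 of 20 such sets. Hoxa5 was at 133 CPM in standard diet library 2, with the others between 75.1 and 91.1 CPM. The sum of the 9 HoxA genes was 573 CPM in the same library, with the others between 428 and 463 CPM, and Hoxa5 is part of that sum. Hoxa7 was at 31.8 CPM in standard diet library 1, with the others between 41.7 and 45.3 CPM. Groups of 3, such as the BCAA-free libraries, were not checked in this way.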

How the results depend on the processing

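With edgeR, 0 of the 9 HoxA genes passed under every scaling, filter, fit and omission tried, and DESeq2 called 1 (Hoxa6). The MLL complex list had 1 called gene with no filter on low counts and 2 in DESeq2, and the HOXA9 and HOXA10 target list 1 and 3. Over all genes 101 were called, 237 with no filter (1.21% of those tested), 378 in DESeq2, and 32 to 134 when 1 library was left out. Without standard diet 3 and BCAA-free 2 together, the count was 47. Of the called genes 28.7% were higher on the BCAA-free diet, but 58.2% without BCAA-free 3 and 9.38% without BCAA-free 2. With upper quartile factors 36.2% were higher and the median of all genes was 0.05. Leaving out 1 library moved the log2 fold change of Hoxa11 between -0.26 and 0.71, of Hoxa9 between -0.19 and 0.016, of Hoxa7 between -0.29 and 0.031, of Tada2a between -0.15 and 0.014 and of Dot1l between -0.022 and 0.12, so these changed sign. The omissions that turned them were standard diet 5 (-0.11), BCAA-free 1 (-0.26) or BCAA-free 3 (-0.07) for Hoxa11, BCAA-free 2 for Hoxa9 (0.016) and Tada2a (0.014), and BCAA-free 3 for Hoxa7 (0.031) and Dot1l (-0.022). Hoxa2, Hoxa3, Hoxa4, Hoxa5, Hoxa6 and Hoxa10 kept their direction under all 15 alternatives. The cause of these shifts was not tested.

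With the replicate number as a block, 0 genes were called over all genes, 0 of the HoxA genes, and Hoxa11 turned to -0.25. Same-numbered libraries did not deviate together (correlations of -0.08, -0.05 and -0.30), and none correlated best with its own number. So few values cannot show that these libraries share nothing else. They were not taken as pairs because no label says that the numbers pair animals. Depth limits Hoxa11 and Mir196b, with at most 24 and 33 counts in a library.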

Other observations

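Ratios between HoxA genes were compared within each library, for pairs chosen after their values were seen, so they are given without a test. The ratio of Hoxa6 to Hoxa3 counts was 0.885, 0.688, 0.855, 1.19 and 0.787 on the standard diet and 1.601, 2.91 and 1.44 on the BCAA-free diet. All 3 BCAA-free libraries lay above all 5 of the standard diet. For Hoxa6 to Hoxa5 the ratio was 0.211 ± 0.0251 (SD, n = 5) and 0.263 ± 0.0112 (SD, n = 3), again with no overlap. The ratio of Hoxa10 to Hoxa9 was 0.647 ± 0.0926 and 0.597 ± 0.0671, and these groups overlapped. A ratio within a library shows that 2 genes differed unequally and does not show which of them moved.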
